A study of Mus musculus with 16 samples.

Results

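Imprinted genes are genes of which only the copy from the father or only the copy from the mother is transcribed in some or all tissues. Of these, 47 were followed, chosen by symbol from a list of imprinted genes of the mouse. No measured value entered that rule, but earlier results of these data were known when the members were chosen. All 47 symbols were found among the 23282 named loci of the deposited tables, on 51 loci, because Igf2, Rian, Gnas and Plagl1 each also name a second locus. A member is the locus of its symbol with more counts, and the second loci are given only where said. A filter on low counts passed 46 members into the test. Kcnk9, a potassium channel gene next to Peg13, had a count of 0 in all 8 libraries, which allows up to 3 counts in each. By textbook knowledge, 24 members are expressed from the paternal allele, 12 from the maternal allele, and 11 show imprinting that depends on tissue or isoform, and they lie in 19 clusters. The reads were not separated by allele here, so every value below is the RNA of both copies together.

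RNA was sequenced from mouse embryoid bodies at day 6 of SFEBq culture, a method in which embryonic stem cells aggregate and form neural and eye tissue. The WT group was untreated Rx:GFP KI cells, which carry GFP at the Rx eye field gene, as did all the groups. The KO group was a Wdr5 knockout clone of these cells kept without doxycycline, and the labels do not say whether it carried the transgene described next. In the T12h and T48h groups, Wdr5 KO cells with a human WDR5 inducible by doxycycline received doxycycline at T12h or at T48h. WDR5 is a subunit of the complexes that methylate histone H3 at lysine 4. All groups were grown in 5% KSR in GMEM with 2% matrigel added at day 1. All 3 Wdr5 KO groups are labelled with clone #3, so the knockout and whatever else sets this clone apart from WT cannot be told apart, and neither can doxycycline and WDR5 in the rescues.

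Each group had 2 biological duplicates (called a and b) with 2 technical runs each, which were summed into 8 libraries of 32476672 to 65687429 counts. Levels are CPM, counts scaled to the size of the library, and fold changes are log2 values ± SE from edgeR's quasi-likelihood test, with n = 2 libraries a group. A gene was called changed at a Benjamini-Hochberg adjusted p under 0.05 over 16130 genes. The labels do not say that duplicates came from separate cultures, so p-values measure only the spread between these libraries. Wdr5 counts stood at 186 and 187 CPM in WT, 32.5 and 28.4 in KO, 329 and 337 in T12h and 279.9 and 294 in T48h. Reads of the human transgene could be counted at the mouse locus, and the share was not tested. In bulk RNA such as this, fewer cells of a type and less RNA per cell cannot be told apart.

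Imprinting is set in the germ line, where DNA methylation marks an imprinting control region on a single parental copy. After fertilization, the zinc finger protein ZFP57 binds the sequence TGCCGC when it is methylated and, with TRIM28, keeps the mark through the early embryo. Many clusters hold a long non-coding RNA, such as Airn or Kcnq1ot1, whose transcription silences neighbouring protein genes on the same chromosome. Many imprinted genes regulate fetal growth, the placenta and the nervous system, and paternally expressed growth promoters such as Igf2 and Mest are often set against maternally expressed growth inhibitors such as Cdkn1c, Phlda2, Grb10 and Igf2r.

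Promoter sequences were taken from RefSeq (GRCm38.p6), as windows of 300 bases from 250 before to 50 after a transcript's start, and 37 of the 46 members looked up had one. Peg3 and Usp29 start 164 bases apart on opposite strands, and their windows share 263 bases, so both genes are read from the single stretch shown here. It is given because these neighbours moved in opposite directions in the KO and together in T48h. It is written on the Peg3 (minus) strand at chr7:6730370-6730669, and the capitals mark the 163 bases between the starts.
Peg3 and Usp29: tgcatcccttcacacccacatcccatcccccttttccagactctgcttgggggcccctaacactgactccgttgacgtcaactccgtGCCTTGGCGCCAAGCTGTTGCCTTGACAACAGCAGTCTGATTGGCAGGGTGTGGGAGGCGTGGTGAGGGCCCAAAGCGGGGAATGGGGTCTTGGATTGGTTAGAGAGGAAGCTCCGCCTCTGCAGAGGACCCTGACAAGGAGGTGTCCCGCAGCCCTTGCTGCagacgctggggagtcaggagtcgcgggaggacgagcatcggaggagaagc

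TGCCGC was searched on both strands of every window. It was found in a window of 12 of the 37 members (32.4%) and of 13.1% of 27025 symbols in the table, or in 22.8% of member windows and 11.6% of all 32851 windows. The 12 members were Copg2, Grb10, Igf2, Mcts2, Meg3, Mest, Nap1l5, Nnat, Plagl1, Snrpn, Zdbf2 and Zim1. TGCCGC holds a CpG, a C followed by a G. The member windows with the motif held from 7 (Snrpn) to 45 (Grb10) CpG, and the median of all windows was 7. The shares were not matched for CpG content, and its part was not tested. A match is a description of the letters, and no binding or methylation was measured. Windows of 4 paternally expressed members that fell in the KO and rose in T12h are shown, each 5′ to 3′ on the gene's strand, with the motif in capitals (as TGCCGC, or as GCGGCA where it lies on the other strand). They are Mest at chr6:30737800-30738099 (plus), Plagl1 at chr10:13090582-13090881 (plus), Nap1l5 at chr6:58907077-58907376 (minus) and Nnat at chr2:157559828-157560127 (plus). Zdbf2 and Igf2, also paternally expressed and with the motif, fell in the KO and rose in T12h over KO too, and their windows are not shown. Grb10, Meg3, Snrpn and Zim1, which also hold the motif, rose in the KO.
Mest: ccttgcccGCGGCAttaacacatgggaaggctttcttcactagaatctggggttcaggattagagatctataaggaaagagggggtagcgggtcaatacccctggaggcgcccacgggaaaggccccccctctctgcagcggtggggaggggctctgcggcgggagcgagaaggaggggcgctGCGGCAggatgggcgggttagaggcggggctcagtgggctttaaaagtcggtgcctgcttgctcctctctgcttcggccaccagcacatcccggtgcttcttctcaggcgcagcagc
Plagl1: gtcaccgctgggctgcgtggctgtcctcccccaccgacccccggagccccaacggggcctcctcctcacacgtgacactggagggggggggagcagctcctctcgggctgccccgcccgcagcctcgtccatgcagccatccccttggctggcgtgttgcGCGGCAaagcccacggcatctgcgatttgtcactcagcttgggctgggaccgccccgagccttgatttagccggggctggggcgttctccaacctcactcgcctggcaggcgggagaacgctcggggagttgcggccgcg
Nap1l5: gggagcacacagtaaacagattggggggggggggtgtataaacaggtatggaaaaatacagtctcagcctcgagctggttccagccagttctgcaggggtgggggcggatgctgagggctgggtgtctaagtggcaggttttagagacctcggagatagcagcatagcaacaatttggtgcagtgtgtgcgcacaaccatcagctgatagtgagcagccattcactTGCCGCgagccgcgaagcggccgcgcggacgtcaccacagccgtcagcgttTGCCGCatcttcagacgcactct
Nnat: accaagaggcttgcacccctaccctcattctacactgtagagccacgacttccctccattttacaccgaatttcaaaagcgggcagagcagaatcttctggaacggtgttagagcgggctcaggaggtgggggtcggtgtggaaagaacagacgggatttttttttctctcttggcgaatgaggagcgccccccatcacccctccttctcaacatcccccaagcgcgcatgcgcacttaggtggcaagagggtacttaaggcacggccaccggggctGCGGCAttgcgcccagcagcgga

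Nearly all members changed in the KO, in both directions. With edgeR, 20 members were higher and 21 lower in KO than in WT, which is 89.1% of the 46 tested, against a background of 64.1% of all genes tested (31.7% higher and 32.4% lower). Changes of at least 2-fold were found in 27 members (58.7%), against 33.6% of all genes tested. In T12h against KO, 23 members rose and 20 fell (93.5%, against a background of 64.8%, 32.8% higher and 32.1% lower). In T48h against KO, 25 rose and 13 fell (82.6%, against 67.3%, 34.2% higher and 33.2% lower). Changes of at least 2-fold were found in 22 members (47.8%) in each rescue against KO, where 34.6% of all genes tested passed in T12h and 36.8% in T48h.

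The fewest calls were between T12h and WT, with 10 members higher and 9 lower in T12h (41.3%), where 14.0% of all genes tested were called (7.9% higher and 6.11% lower). T48h differed from WT in 37 members, 26 higher and 11 lower (80.4%, against 47.3%, 23.9% higher and 23.4% lower). It differed from T12h in 33 members, 22 higher and 11 lower (71.7%, against 50.2%, 24.9% higher and 25.3% lower). At 2-fold or more the members called were 7 in T12h against WT (15.2%, background 3.32%), 17 in T48h against WT (37.0%, background 21.9%) and 19 in T48h against T12h (41.3%, background 22.9%). The members were also more abundant than most genes, with a median of 54.6 CPM against 20.9 CPM for all genes tested, and the part of that in the number of calls was not tested. The comparisons with KO share the KO libraries and those with WT share the WT libraries. In every call of a member the libraries of both groups did not overlap. The same was not counted for the calls of all genes, so it is not shown to be particular to the members.

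**Figure D1:**
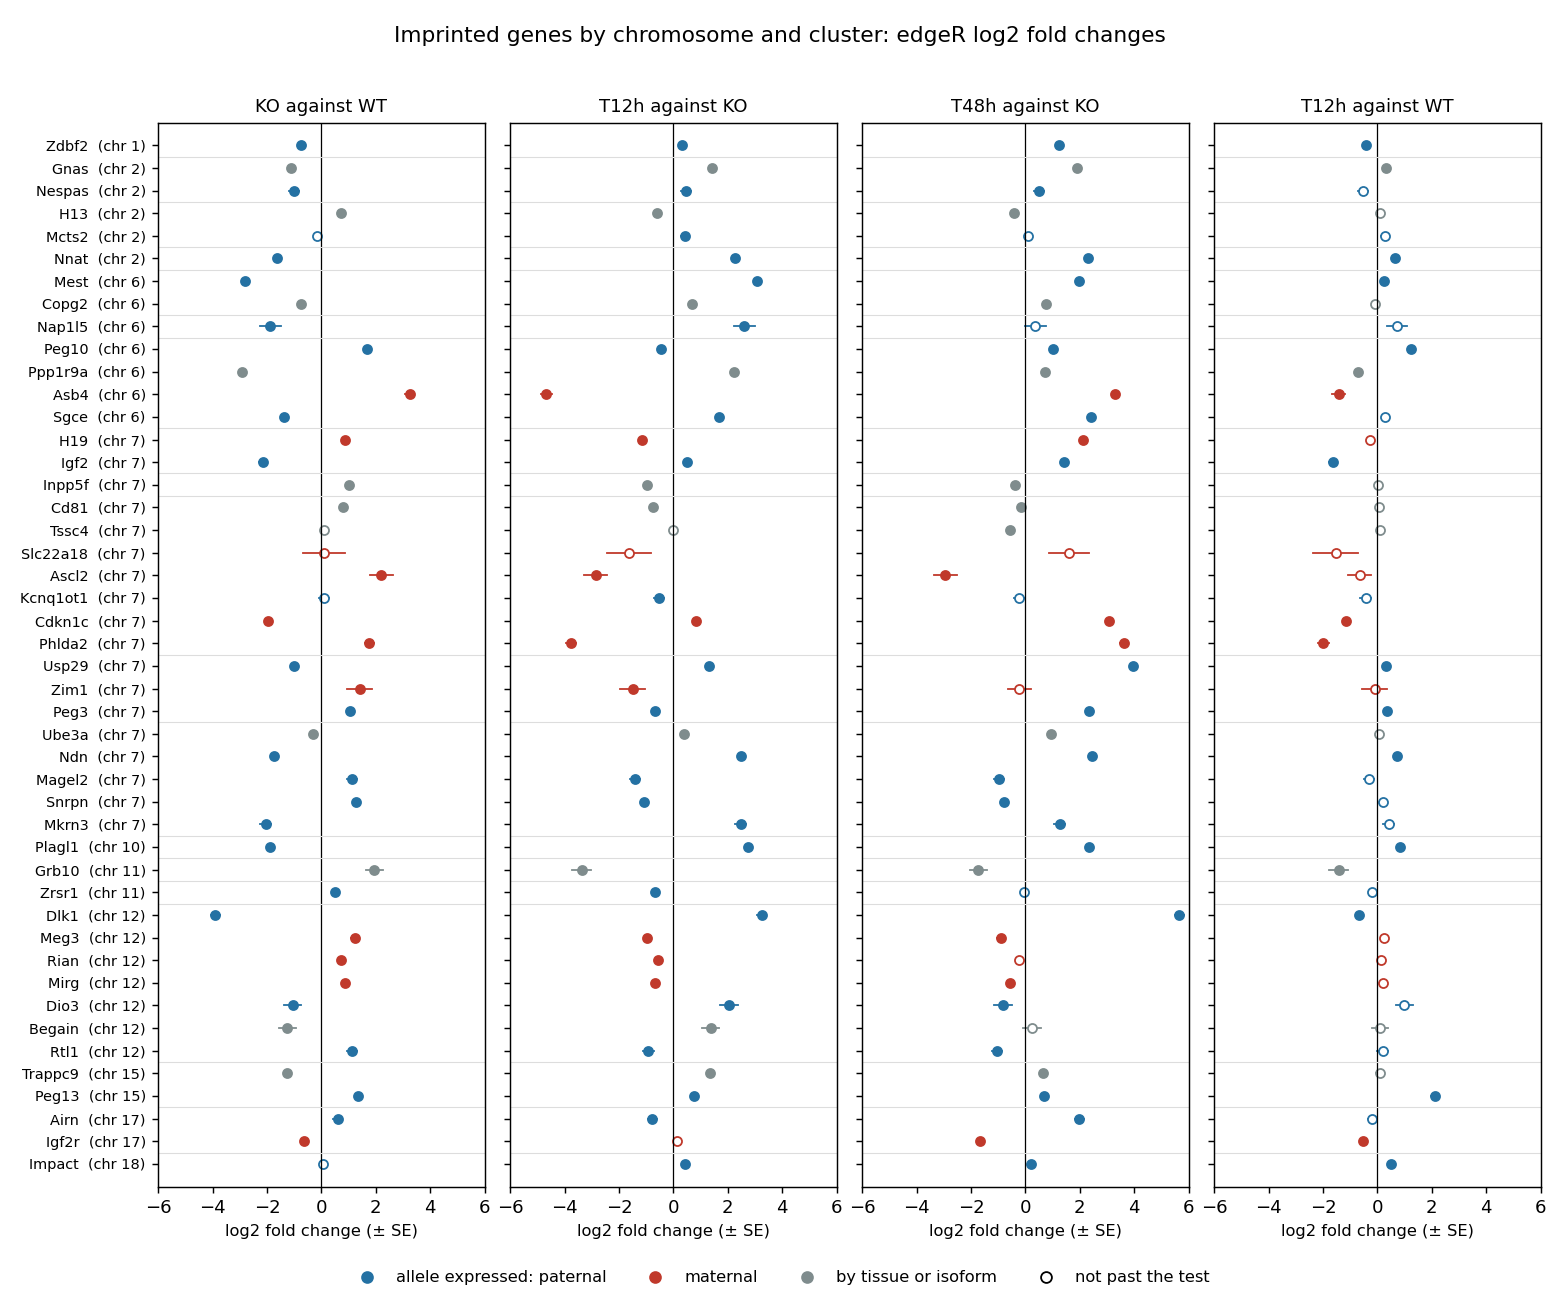
Log2 fold changes (x axis, ± SE, n = 2 libraries a group) of the 46 members tested, by chromosome and cluster (y axis), in 4 comparisons. Filled points passed the edgeR test, open points did not, and colours give the allele expressed. Most points of the first 3 panels are filled and lie on both sides of 0, and in T12h against WT 27 of 46 are open.

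By FPKM, Mest was the most abundant member in WT. It encodes a hydrolase-like protein of mesoderm that promotes fetal growth, and lies at chr6:30733506-30748466 in the tables (mm10). Mest stood at 4168 and 4772 CPM in WT, 639.9 and 629.9 in KO, 5132 and 5441 in T12h and 2477 and 2493 in T48h. Both KO libraries were far below all others, and the T48h libraries lay between KO and WT without overlap. Mest fell by 2.82 ± 0.08 on the log2 scale in KO (edgeR adjusted p = 1.05e-11), rose by 3.06 ± 0.08 in T12h over KO (4.43e-12) and by 1.97 ± 0.07 in T48h over KO (1.08e-10). By FPKM, a level per length, Mest ranked 9 of 23282 named loci in WT, 200 in KO, 4 in T12h and 26 in T48h. T48h stayed 0.85 ± 0.07 below WT on the log2 scale (edgeR adjusted p = 4.89e-07). T12h was 0.24 above WT (edgeR adjusted p = 0.0394), a call lost without WT library a, T12h library a or T12h library b, under upper-quartile scaling (edgeR adjusted p = 0.0822), with only the groups compared (0.0616) and in both limma fits on FPKM (0.271 and 0.264). Copg2, a coat protein gene next to Mest, moved less, by −0.76 ± 0.11 in KO and 0.67 ± 0.11 in T12h over KO.

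Of the paternally expressed genes that stand alone in the set, Plagl1, Nnat, Nap1l5 and Zdbf2 also fell in KO. Of the others, Zrsr1 rose by 0.50 on the log2 scale and Impact did not pass (0.05). Plagl1 encodes a zinc finger factor that restrains proliferation and is a regulator of other imprinted genes. It stood at 128 and 163 CPM in WT, 40.4 and 38.1 in KO, 272 and 250.2 in T12h and 202 and 195 in T48h. Nnat, a small membrane protein of developing brain, stood at 148 and 135 CPM in WT, 47.4 and 44.2 in KO, 224 and 222 in T12h and 232 and 220.4 in T48h. In both genes the KO libraries lay below all others and both rescues lay above WT. Plagl1 fell by 1.89 ± 0.10 and Nnat by 1.63 ± 0.08 on the log2 scale in KO, and they rose over KO by 2.73 ± 0.11 and 2.28 ± 0.08 in T12h (edgeR adjusted p = 1.6e-10 and 5.29e-11) and by 2.34 ± 0.11 and 2.30 ± 0.08 in T48h. Against WT, T12h was higher by 0.84 ± 0.10 for Plagl1 and 0.65 ± 0.07 for Nnat.

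Nap1l5, a nucleosome assembly gene inside an intron of Herc3, had 6.49 and 5.16 CPM in WT, 2.23 and 0.836 in KO, 9.51 and 9.71 in T12h and 2.31 and 1.74 in T48h. Its T12h libraries were the highest, and KO and T48h were both low. It fell by 1.88 ± 0.38 in KO (edgeR adjusted p = 0.000685), rose by 2.61 ± 0.38 in T12h over KO, and had 0.36 ± 0.38 in T48h over KO, which did not pass. Zdbf2, whose product is linked to growth and feeding in newborn mice, had 209 and 221 CPM in WT, 134 and 119 in KO, 153 and 166 in T12h and 295 and 301 in T48h. Its order was KO, T12h, WT and T48h from low to high with no overlap between neighbours, and T48h exceeded KO by 1.23 ± 0.08 (edgeR adjusted p = 1.49e-08). The second locus named Plagl1 differed strongly between duplicates, with 37.9 and 13.2 CPM in WT, 0.381 and 0.0539 in KO, 1.05 and 32.4 in T12h and 106 and 33.2 in T48h, and its call in T12h over KO (5.98 ± 1.42) was lost without T12h library b, where the value was 2.04 (edgeR adjusted p = 0.144), and in both limma fits on FPKM.

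**Figure D2:**
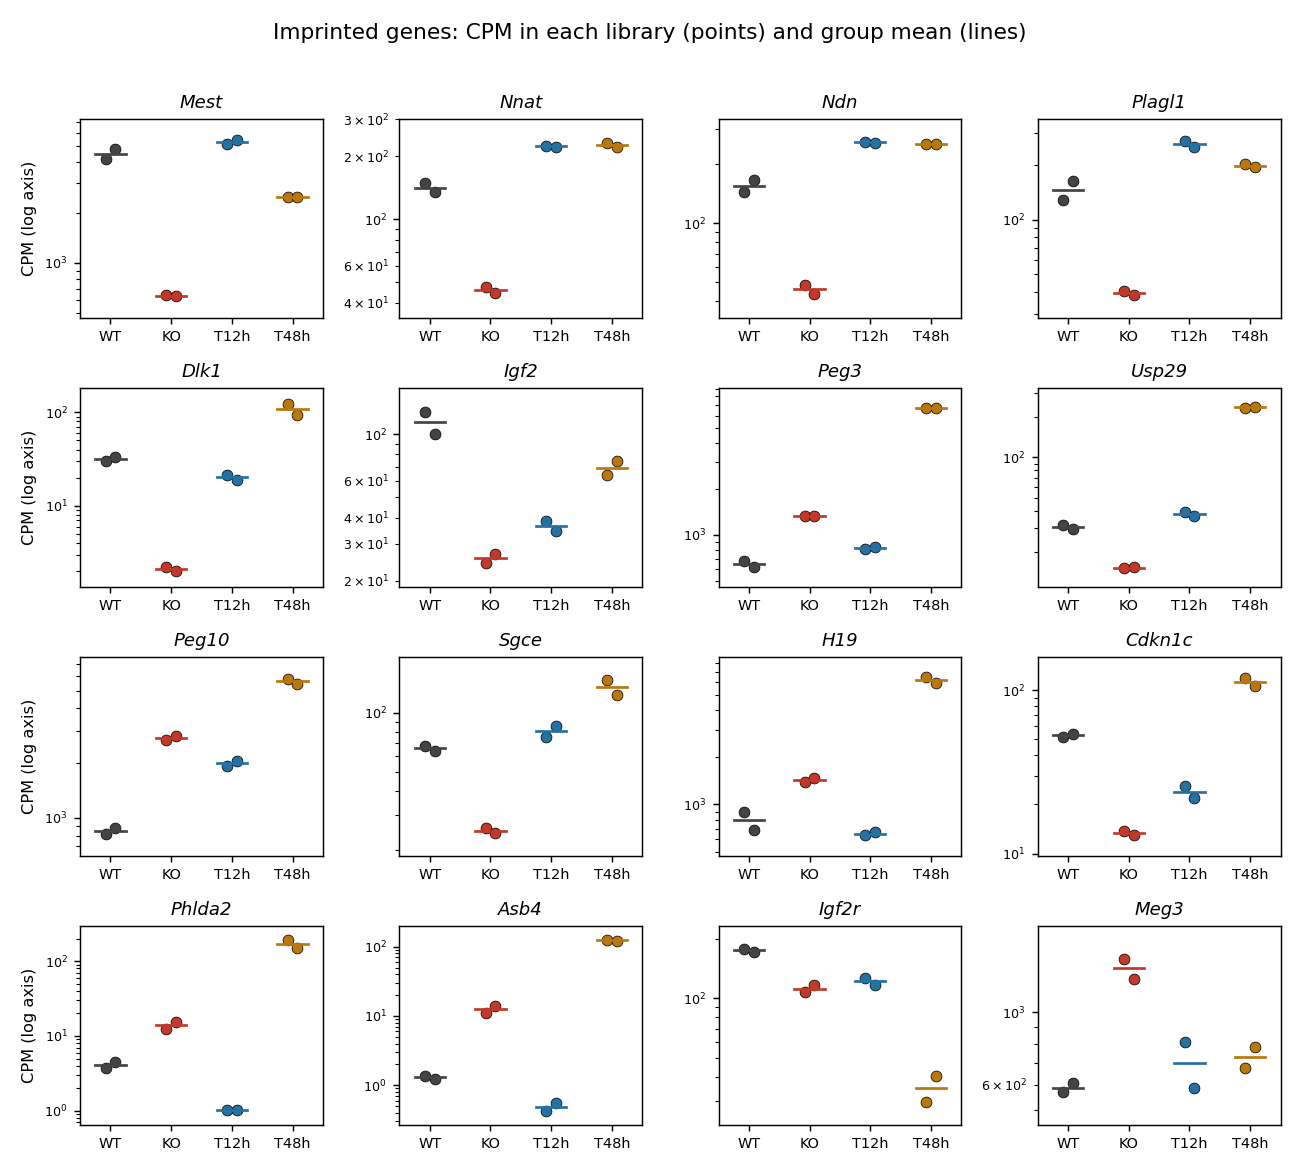
CPM (log axes, each panel with its own range) of 16 members in the 2 libraries of each group (points, WT, KO, T12h and T48h from left to right), with the group mean as a line. Mest, Nnat, Ndn, Plagl1, Dlk1, Igf2, Usp29, Sgce and Cdkn1c had their lowest libraries in KO, and Peg3, Usp29, Peg10, H19, Phlda2 and Asb4 their highest in T48h.

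The Peg3 cluster on chromosome 7 showed its neighbours apart in KO and together in T48h. Peg3 encodes a large zinc finger repressor with roles in growth and maternal behaviour, and Usp29, read from the other side of the same promoter, encodes a deubiquitinase. Peg3 stood at 679 and 622 CPM in WT, 1320.0 and 1339 in KO, 809 and 838 in T12h and 6739 and 6737 in T48h. Usp29 stood at 31.6 and 29.5 CPM in WT, 15.2 and 15.3 in KO, 39.5 and 36.7 in T12h and 232 and 237 in T48h. In KO, Peg3 lay above WT and Usp29 below it, and in T48h both were the highest of all groups by far. Peg3 rose by 1.03 ± 0.06 in KO (edgeR adjusted p = 1.66e-08) while Usp29 fell by 1.00 ± 0.09 on the log2 scale (3.21e-07).

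In T12h over KO the directions were the reverse, with −0.69 ± 0.06 for Peg3 and 1.32 ± 0.08 for Usp29. In T48h both rose, by 3.37 ± 0.07 for Peg3 (edgeR adjusted p = 8.6e-13) and by 2.94 ± 0.09 for Usp29 (1.15e-11) over WT. The ratio of Peg3 to Usp29 CPM was 21.5 and 21.1 in WT, 86.8 and 87.3 in KO, 20.5 and 22.8 in T12h, and 29.1 and 28.4 in T48h. This ratio is not per length and is compared only between libraries, where KO stood apart from the other 3 groups. Usp29 in T12h was 0.32 above WT, a call lost when any 1 of the 4 libraries was left out (lowest 0.262 without T12h library a, highest 0.373 without WT library a), with only the groups compared, and in both limma fits on FPKM. By FPKM rank, Peg3 moved from 1057 in WT and 432 in KO to 36 of 23282 in T48h. Zim1, a maternally expressed zinc finger gene beside Peg3, was low, with 1.14 and 0.92 CPM in WT, 3.03 and 2.4 in KO, 0.925 and 0.991 in T12h and 2.97 and 1.72 in T48h. Its rise of 1.40 ± 0.45 in KO (edgeR adjusted p = 0.0153) was lost without WT library a, WT library b or KO library a.

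In the Peg10 cluster on chromosome 6, Peg10 and Sgce also start side by side on opposite strands. Peg10 is a gene of retrotransposon origin that the placenta needs, and Sgce encodes a sarcoglycan of muscle and brain. Peg10 stood at 819.5 and 885 CPM in WT, 2672 and 2826 in KO, 1921 and 2057 in T12h and 5780.0 and 5446 in T48h. Sgce stood at 67.9 and 63.8 CPM in WT, 25.6 and 24.4 in KO, 75 and 85.7 in T12h and 147 and 123 in T48h. Peg10 was above WT in all 3 groups of the clone, whereas Sgce was lowest in KO, and both were highest in T48h. Peg10 rose by 1.69 ± 0.07 in KO (edgeR adjusted p = 3.48e-10), was 1.22 ± 0.07 above WT in T12h (7.84e-07) and 2.72 ± 0.07 above it in T48h (6.81e-12).

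Sgce fell by 1.40 ± 0.11 on the log2 scale in KO and rose over KO by 1.68 ± 0.11 in T12h and 2.43 ± 0.11 in T48h. The ratio of Peg10 to Sgce CPM was 12.1 and 13.9 in WT, 104 and 116 in KO, 25.6 and 24.0 in T12h, and 39.4 and 44.4 in T48h. The KO ratio was the highest again, and all 3 groups of the clone lay above WT.

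Asb4 and Ppp1r9a lie further along the same cluster. Asb4, a maternally expressed gene for a ubiquitin ligase adaptor with roles in placental vessels, had 1.36 and 1.25 CPM in WT, 11.1 and 13.8 in KO, 0.426 and 0.551 in T12h and 125 and 122 in T48h. It had the widest span of the 46 members tested, from T12h to T48h, with KO above WT and T12h below it. Asb4 rose by 3.25 ± 0.17 in KO (edgeR adjusted p = 2.84e-09), fell by 4.67 ± 0.19 on the log2 scale in T12h against KO, and T48h exceeded WT by 6.56 ± 0.17 (5.7e-12). T12h was 1.42 ± 0.25 below WT (edgeR adjusted p = 0.00194), a call lost in limma on log2(FPKM + 1) (0.221). Ppp1r9a, the gene of neurabin, an actin-binding protein of neurons, had 127 and 133 CPM in WT, 18.8 and 15.1 in KO, 82.8 and 76.7 in T12h and 27.1 and 28.9 in T48h. It was lower than WT in every library of the clone, most in KO (−2.93 ± 0.11, edgeR adjusted p = 1.5e-10), and T48h stayed 2.22 ± 0.11 below WT.

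**Figure D3:**
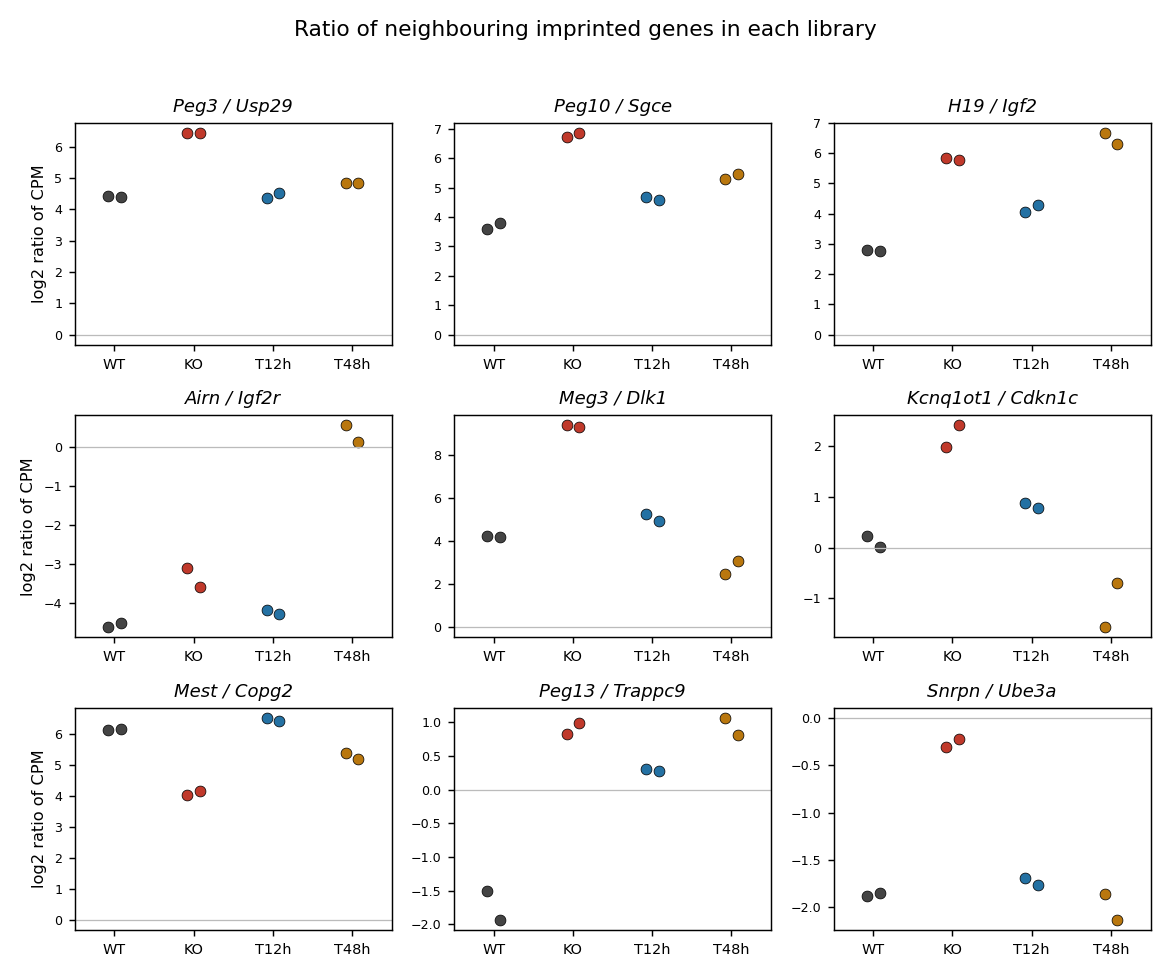
Log2 ratio of CPM (y axes, each panel with its own range, grey line at equal counts) of 9 pairs of neighbouring members in the 2 libraries of each group (points). The KO libraries lie above the other groups for Peg3 to Usp29, Peg10 to Sgce, Meg3 to Dlk1, Kcnq1ot1 to Cdkn1c and Snrpn to Ube3a, and the T48h libraries lie above the others for Airn to Igf2r and H19 to Igf2.

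H19 and Igf2 on chromosome 7 share enhancers and an imprinting control region, with H19, a non-coding RNA, read from the maternal copy and Igf2, a fetal growth factor, from the paternal copy. H19 stood at 891 and 689.7 CPM in WT, 1396 and 1472 in KO, 634 and 666 in T12h and 6465 and 5914 in T48h. Igf2 stood at 127 and 100.5 CPM in WT, 24.5 and 26.8 in KO, 38.6 and 34.5 in T12h and 63.6 and 74.8 in T48h. H19 was highest in T48h by far, and Igf2 was highest in WT and lower in every library of the clone. H19 rose by 0.86 ± 0.10 in KO (edgeR adjusted p = 5.89e-06) and was 2.97 ± 0.11 above WT in T48h (7.97e-11). In T12h, H19 was at −0.28 against WT, which did not pass the test.

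Igf2 fell by 2.15 ± 0.13 on the log2 scale in KO (edgeR adjusted p = 8.9e-09), and it stayed below WT by 1.64 ± 0.12 in T12h (5.56e-06) and 0.72 ± 0.12 in T48h (0.000282). The ratio of H19 to Igf2 CPM was 7.0 and 6.86 in WT, 57.1 and 54.9 in KO, 16.4 and 19.3 in T12h, and 102 and 79.1 in T48h, so it was above WT in every library of the clone. By FPKM, H19 ranked 91 of 23282 in WT, 48 in KO, 119 in T12h and 4 in T48h, where its level was 2421. The second locus named Igf2 was low, with 5.85 and 7.09 CPM in WT and 7.49 and 1.40 in T48h. Of 11 tested partners of insulin-like growth factor signalling, 3 rose and 5 fell in KO (72.7%, near the 64.1% of all genes tested), among them Igf2bp2, an mRNA-binding protein (−2.01 ± 0.09), and Igf1 (4.70 ± 0.21). In T12h against WT, 3 of the 11 rose (27.3%, where 7.9% of all genes tested were called higher).

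The growth inhibitors of the Kcnq1ot1 cluster did not move as a block. Cdkn1c, which encodes the cell cycle inhibitor p57, had 52 and 53.8 CPM in WT, 13.8 and 13 in KO, 26 and 21.8 in T12h and 119 and 106 in T48h. Phlda2, which restrains growth of the placenta, had 3.69 and 4.48 CPM in WT, 12.5 and 15.4 in KO, 1.04 and 1.01 in T12h and 188 and 151 in T48h. Ascl2, a transcription factor of trophoblast, had 1.14 and 0.979 CPM in WT, 4.79 and 5.02 in KO, 0.722 and 0.617 in T12h and 0.681 and 0.588 in T48h. In KO, Cdkn1c was below WT while Phlda2 and Ascl2 were above it, and in T48h Cdkn1c and Phlda2 were the highest while Ascl2 was not.

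Cdkn1c fell by 1.98 ± 0.11 on the log2 scale in KO (edgeR adjusted p = 6.41e-09), and was 1.15 ± 0.11 below WT in T12h and 1.09 ± 0.11 above it in T48h. Phlda2 rose by 1.76 ± 0.16 in KO (edgeR adjusted p = 5.42e-07), was 1.99 ± 0.21 below WT in T12h (6.53e-05) and 5.38 ± 0.16 above it in T48h (1.9e-11). Ascl2 rose by 2.21 ± 0.41 in KO and was below KO by 2.87 ± 0.42 in T12h and by 2.94 ± 0.43 in T48h. Slc22a18, a transporter gene next to Phlda2, was near the limit of detection, with 12 and 14 counts in WT, 10 and 3 in T12h and 48 and 46 in T48h. Its only call, T48h above T12h by 3.22 ± 0.82, was lost without T12h library b (2.65, edgeR adjusted p = 0.0672).

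Kcnq1ot1, the paternal non-coding RNA of the cluster, had 61 and 54 CPM in WT, 54.4 and 68.9 in KO, 47.6 and 37.2 in T12h and 40.2 and 65 in T48h. Its libraries overlapped in most comparisons, and only the fall in T12h against KO was called (−0.54 ± 0.19, edgeR adjusted p = 0.0249), which was lost without KO library b or T12h library b, in DESeq2 (−0.602, adjusted p = 0.0782) and in both limma fits on FPKM (0.104 and 0.142). Cd81, a tetraspanin at the edge of the cluster, was above WT in all groups of the clone, by 0.81 ± 0.07 in KO and 0.65 ± 0.07 in T48h, where T12h did not pass (0.06). Tssc4 lay between 27.9 and 45.6 CPM and was lower only in T48h, by 0.47 ± 0.11 against WT.

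At the Igf2r cluster on chromosome 17, Airn is transcribed from the paternal copy against Igf2r, the receptor that takes up and clears IGF2. Igf2r stood at 177 and 172 CPM in WT, 107 and 116 in KO, 127 and 116 in T12h and 29.9 and 40.5 in T48h. Airn stood at 7.16 and 7.54 CPM in WT, 12.6 and 9.66 in KO, 7.0 and 5.92 in T12h and 43.7 and 44.1 in T48h. In T48h the Igf2r libraries were the lowest and the Airn libraries the highest, with no overlap. Igf2r was below WT by 0.64 ± 0.11 in KO and by 2.31 ± 0.12 in T48h (edgeR adjusted p = 3.05e-09), and Airn was above WT by 2.58 ± 0.17 in T48h (4.21e-08). The ratio of Airn to Igf2r CPM was 0.0404 and 0.0437 in WT, 0.117 and 0.0829 in KO, 0.0549 and 0.0509 in T12h, and 1.46 and 1.09 in T48h. Both genes overlap on opposite strands within a single span of the tables, and no source used here names the strand setting of the counting. Reads of either gene could therefore be among the counts of the other, and the share was not tested. Airn's call in KO (0.60 ± 0.17) was lost without KO library a (0.383) and had the other sign on the scale of log2(FPKM + 1), where limma gave −0.448 (adjusted p = 0.148). Its fall in T12h against KO had the other sign there too (0.496, limma adjusted p = 0.116). The call of Igf2r in T12h below WT (−0.52 ± 0.11) was lost without WT library a (−0.498) or T12h library b (−0.459) and in limma on log2(FPKM + 0.1) (adjusted p = 0.0546).

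In the Dlk1-Dio3 cluster on chromosome 12, Dlk1 fell and the maternal RNAs rose in KO. Dlk1, a membrane protein of the Notch family that keeps progenitors immature, had 30.3 and 33.6 CPM in WT, 2.21 and 2.02 in KO, 21.3 and 19.1 in T12h and 124 and 93 in T48h. Meg3, the first of the maternal non-coding RNAs, had 568 and 605 CPM in WT, 1459 and 1264 in KO, 810.1 and 588 in T12h and 674 and 782 in T48h. Dlk1 was lowest in KO and highest in T48h, and Meg3 was highest in KO, while the Meg3 libraries of T12h spread around those of T48h. Dlk1 fell by 3.90 ± 0.17 on the log2 scale in KO (edgeR adjusted p = 4.28e-10), rose by 3.24 ± 0.17 in T12h and by 5.66 ± 0.17 in T48h over KO (1.84e-11), and was 1.76 ± 0.14 above WT in T48h.

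T12h stayed below WT for Dlk1 by 0.66 ± 0.14 (edgeR adjusted p = 0.00594), a call lost without T12h library b (−0.586). Meg3, Rian and Mirg, the maternal RNAs that host snoRNAs and microRNAs, rose together in KO, by 1.22 ± 0.13, 0.71 ± 0.09 and 0.86 ± 0.11 (edgeR adjusted p at most 1.85e-05), and fell by 0.96 ± 0.13, 0.57 ± 0.09 and 0.67 ± 0.11 on the log2 scale in T12h. In limma on log2(FPKM + 1), Mirg's rise in KO was not called (0.564, adjusted p = 0.323) and its difference in T12h from KO had the other sign (0.0488, 0.935). The loci of Meg3, Rian and Mirg carry further symbols of small RNAs in the tables, so their counts hold those too. The ratio of Meg3 to Dlk1 CPM was 18.7 and 18 in WT, 660 and 625 in KO, 38 and 30.8 in T12h, and 5.45 and 8.41 in T48h. Dlk1 differed more between the groups than Meg3 did.

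Rtl1, a paternal gene of retrotransposon origin that lies against maternal RNA of the other strand, went with Meg3 and had 17.4 and 15.9 CPM in WT, 32.2 and 40.5 in KO, 17.7 and 20.7 in T12h and 13.6 and 21.5 in T48h. It rose by 1.12 ± 0.20 in KO (edgeR adjusted p = 0.000262), and reads of the antisense RNA could be among its counts, which was not tested. Dio3, which inactivates thyroid hormone, had 3.97 and 3.09 CPM in WT, 1.9 and 1.46 in KO, 6.68 and 7.29 in T12h and 0.871 and 1.03 in T48h. Its T12h libraries were the highest and its T48h libraries the lowest, with a difference of −2.87 ± 0.34 (edgeR adjusted p = 1.14e-05). The fall of Dio3 in KO (−1.06 ± 0.32) was lost without WT library a (−0.869, edgeR adjusted p = 0.0993), and its fall in T48h against KO (−0.83 ± 0.34) was lost without KO library a or either T48h library, in DESeq2 (adjusted p = 0.0553), with only the groups compared in the edgeR fit (0.21) and with 1 technical column per duplicate (0.173). Begain, a synaptic protein gene upstream of Dlk1, had 5.91 and 5.4 CPM in WT, 2.94 and 1.7 in KO, 6.31 and 5.79 in T12h and 3.16 and 2.4 in T48h. WT and T12h overlapped, and KO and T48h were lower, by 1.27 ± 0.31 in KO (edgeR adjusted p = 0.00325). The call in T48h below WT was lost without WT library a (−1.01, edgeR adjusted p = 0.0692) or T48h library b (−0.852, 0.0785). The second locus named Rian had 33.2 and 15.5 CPM in WT, 16 and 17.8 in KO, 8.83 and 10.9 in T12h and 96.3 and 62.2 in T48h.

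In the Snrpn cluster on chromosome 7, the counterpart of the human Prader-Willi and Angelman region, paternally expressed neighbours went opposite ways. Ndn, a MAGE protein that holds neurons out of the cell cycle, had 144 and 164 CPM in WT, 48.7 and 43.5 in KO, 258 and 255 in T12h and 251 and 252 in T48h. Mkrn3, a ubiquitin ligase that delays puberty, had 19.1 and 22.7 CPM in WT, 6.08 and 3.8 in KO, 29.3 and 26.3 in T12h and 11.4 and 12.6 in T48h. Magel2, another MAGE gene of hypothalamic neurons, had 9.57 and 8.81 CPM in WT, 21.4 and 18.1 in KO, 8.36 and 6.52 in T12h and 9.94 and 10.3 in T48h. Ndn and Mkrn3 were lowest in KO, and Magel2 was highest there.

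Snrpn, whose product takes part in splicing in brain, had 69.7 and 73.6 CPM in WT, 178 and 168 in KO, 82.3 and 81.6 in T12h and 110.0 and 89.3 in T48h, with KO the highest. Ndn fell by 1.74 ± 0.09 on the log2 scale in KO (edgeR adjusted p = 1.52e-09) and rose over KO by 2.47 ± 0.09 in T12h and 2.44 ± 0.09 in T48h, so that T12h and T48h lay 0.73 ± 0.08 and 0.71 ± 0.08 above WT. Mkrn3 fell by 2.06 ± 0.21 in KO (edgeR adjusted p = 1.54e-06). Snrpn rose by 1.27 ± 0.10 (edgeR adjusted p = 9.13e-08) and Magel2 by 1.11 ± 0.18 (0.000144) in KO, and both fell in T12h, by 1.08 ± 0.09 and 1.41 ± 0.18 on the log2 scale. Ube3a, a ubiquitin ligase imprinted only in neurons, changed little in KO (−0.32 ± 0.07) and was 0.60 ± 0.07 above WT in T48h. The ratio of Snrpn to Ube3a CPM was 0.271 and 0.277 in WT, 0.806 and 0.856 in KO, 0.310 and 0.295 in T12h, and 0.275 and 0.228 in T48h.

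Members with imprinting by isoform or tissue completed the set. Gnas, which encodes the stimulatory G protein subunit downstream of many hormone receptors, had 993 and 1001 CPM in WT, 462 and 464 in KO, 1161 and 1322 in T12h and 1861 and 1624 in T48h. It was lowest in KO and highest in T48h, and fell by 1.11 ± 0.08 on the log2 scale in KO (edgeR adjusted p = 7.07e-08). The second locus named Gnas had 11.5 and 14.2 CPM in WT, 0.586 and 0.485 in KO, 9.71 and 8.77 in T12h and 8.09 and 7.55 in T48h, lower in KO by 4.56 ± 0.26 (edgeR adjusted p = 5.32e-09). Nespas, antisense to Gnas, was below WT in all groups of the clone, where it fell by 1.00 ± 0.18 on the log2 scale in KO and by 0.48 ± 0.18 in T48h (lost without WT library b or T48h library a and in both limma fits on FPKM). As the strand setting is not known, reads of Gnas could be among the counts of Nespas, which was not tested.

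Grb10, an adaptor that dampens insulin and IGF receptor signalling, had 2.5 and 3.44 CPM in WT, 8.83 and 14.1 in KO, 0.907 and 1.3 in T12h and 3.79 and 3.11 in T48h. It rose by 1.95 ± 0.32 in KO (edgeR adjusted p = 0.000137) and was 1.43 ± 0.34 below WT in T12h, a call lost without WT library b (−1.19, edgeR adjusted p = 0.0919) or T12h library a (−1.19, 0.118), and in both limma fits on FPKM (0.199 and 0.0711). Peg13, a non-coding RNA in an intron of Trappc9, had 13.4 and 11.2 CPM in WT, 32.6 and 30.6 in KO, 55.4 and 50.7 in T12h and 51.7 and 50.4 in T48h. Trappc9, a vesicle trafficking subunit, had 38.3 and 42.9 CPM in WT, 18.4 and 15.3 in KO, 44.6 and 41.8 in T12h and 24.6 and 28.6 in T48h. Peg13 lay above WT in all groups of the clone, by 1.36 ± 0.12, 2.1 ± 0.12 and 2.05 ± 0.12 in KO, T12h and T48h (edgeR adjusted p at most 7.84e-07), while Trappc9 fell in KO by 1.26 ± 0.13 on the log2 scale and overlapped WT in T12h.

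The remaining members, 13 in all, stayed under 2-fold in all 6 comparisons. Inpp5f, a phosphoinositide phosphatase gene, rose by 1.00 ± 0.09 in KO, and H13, a signal peptide peptidase, and Zrsr1, a splicing factor gene, rose by 0.71 ± 0.09 and 0.50 ± 0.11. Mcts2, a copied gene inside H13, and Impact, a translation regulator of neurons, did not pass in KO against WT. Impact was 0.48 ± 0.08 above WT in T12h (edgeR adjusted p = 0.000946), and its libraries ran from 300.2 to 445 CPM over all groups.

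By the allele expressed, the medians of the classes stood on opposite sides in KO. Of the 24 paternally expressed members, 8 rose and 13 fell in KO (median log2 fold change −0.88), and of the 11 maternally expressed members tested, 8 rose and 2 fell (median 0.86), where 31.7% of all genes tested rose and 32.4% fell, with a median of 0.00400. In T12h against KO, 16 paternally expressed members rose and 8 fell (median 0.49), and 1 maternally expressed member rose and 8 fell (median −1.14), beside 32.8% and 32.1% of all genes tested. In T48h against T12h the maternally expressed members had 7 higher and 1 lower (median 1.29), and the paternally expressed members 10 higher and 6 lower (median 0.17), beside 24.9% and 25.3% of all genes tested. Members of a cluster share regulatory elements, so they are not independent, and the difference between the classes was not tested. The 11 members with imprinting by tissue or isoform had 4 higher and 6 lower in KO (median −0.32).

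**Figure D4:**
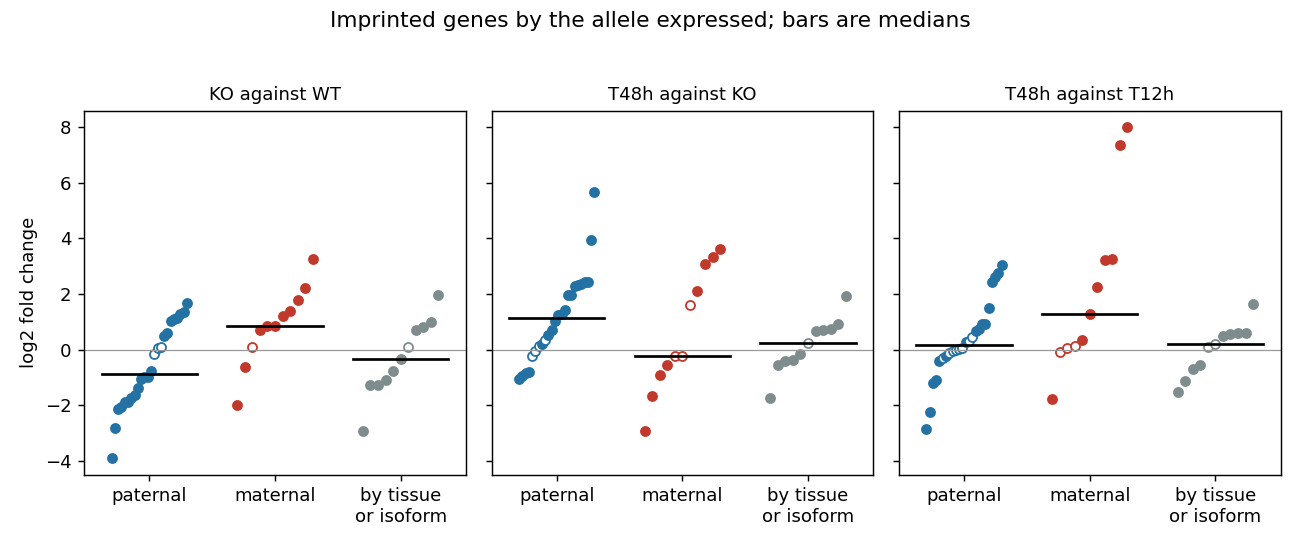
Log2 fold changes (y axis) of the members in 3 comparisons, by the allele expressed (x axis), with 24 paternal, 11 maternal and 11 members that depend on tissue or isoform. Each point is a member, filled where it passed the edgeR test, and bars are medians, which in KO against WT were −0.88, 0.86 and −0.32.

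Several members lay on the same side of WT in all groups of the clone. The share of all genes tested that did so was not counted, so the pattern is not shown to be particular to the members. Of all genes tested, 64.1% were called against WT in KO, 14.0% in T12h and 47.3% in T48h. In all 6 libraries of KO, T12h and T48h, Cd81, Peg3, Peg10, Peg13, Mirg and Snrpn were above both WT libraries, and Igf2, Igf2r, Ppp1r9a and Nespas were below both. Of these, Peg3, Peg10 and Peg13 passed the edgeR test above WT in each of the 3 comparisons, and Igf2, Igf2r and Ppp1r9a passed it below WT in each, though for T12h limma on log2(FPKM + 0.1) gave Ppp1r9a an adjusted p of 0.064 and the limits given above hold for Igf2r. KO held the lowest mean of 20 members and the highest of 15, and T48h the highest of 15 and the lowest of 4. These orders were not counted over all genes tested. All members together took 1.16% and 1.21% of the counts in WT, 1.13% and 1.12% in KO, 1.40% and 1.43% in T12h, and 2.63% and 2.50% in T48h. H19, Peg3 and Peg10 alone took 0.597%, 0.622% and 0.534% in T48h library a.

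Genes that set or keep imprints were measured beside the members. Of 22 such genes, 8 rose and 11 fell in KO (86.4%, against 64.1% of all genes tested). In T12h against WT 3 fell (13.6%, against 14.0%), and in T48h against T12h 9 rose and 4 fell (59.1%, against 50.2%), both near the share of all genes. Dnmt3b, a DNA methyltransferase that writes new marks, rose by 1.91 ± 0.08 in KO (edgeR adjusted p = 2.37e-10). Tet3, which oxidises methylated cytosine, fell by 1.48 ± 0.09 (2.06e-08), Uhrf1 and Dnmt1, which copy methylation at replication, fell by 0.96 ± 0.07 (6.96e-08) and 0.74 ± 0.07 (1.12e-06) on the log2 scale. DNA methylation was not measured here. Of a further list of 29 imprinted genes, 24 could be tested, and 12 rose and 4 fell in KO (66.7%), near the 64.1% of all genes tested. Peg12, a paternal gene beside Mkrn3, fell by 4.05 ± 0.14 (edgeR adjusted p = 5.06e-11) and Casd1, a neighbour of Sgce, by 1.67 ± 0.10 (8.3e-09) on the log2 scale, while Gab1, a signalling adaptor, rose by 1.28 ± 0.07 and Sfmbt2, a Polycomb protein, by 1.11 ± 0.09. In T12h against WT, 2 of the 24 rose and 1 fell (12.5%, against 14.0% of all genes tested).

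Markers of other cell types moved with the groups, and their part in the members' changes was not tested. The summed CPM of 8 eye field and neural markers was 1717 and 1633 in WT, 153 and 154 in KO, 1820 and 1857 in T12h, and 52.5 and 50.1 in T48h. The 8 pluripotent markers summed to 428 and 424 in WT, 793 and 782 in KO, 324 and 332 in T12h, and 39.2 and 44.0 in T48h. Sox2 alone held 308 and 299 CPM of that sum in WT and 292 and 296 in T12h. It was lower in KO (127 and 117), where 7 of the 8 markers rose, beside 31.7% of all genes tested. In T12h, 7 of the 8 were below WT, beside 6.11% of all genes tested. Cardiac mesoderm markers, all 8 of which were higher in T48h than in each other group, summed to 80.1 and 82.2 in WT, 251 and 268 in KO, 97.7 and 112 in T12h, and 2683 and 2660 in T48h.

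The sums of 8 markers each ranged from 123 to 144 CPM in WT and T12h, 323 to 356 in KO and 689.6 to 701 in T48h for paraxial mesoderm and mesenchyme, and from 244 to 399 in WT, T12h and T48h and 525 to 544 in KO for visceral endoderm. Pdgfra alone held 313.5 and 348.1 CPM of the paraxial mesoderm and mesenchyme sum in KO, and 506 and 529.6 in T48h. In KO, 2 of these 8 markers rose, 2 fell (Prrx1 and Snai2) and 4 did not pass, so the higher KO sum is not a rise of the list. The 8 trophoblast markers summed to 50.9 to 59.2 CPM in WT and T12h, 311 and 325 in KO, and 1493 and 1381 in T48h. In T48h, Hand1, which the cardiac list shares, made up 1043 and 966 CPM of that sum, and Elf5, a defining trophoblast gene, was at 0 in both libraries. In KO, 6 of the 8 trophoblast markers rose (75.0%, where 31.7% of all genes tested were called higher). Neuron markers summed to 80.1 to 86.1 CPM in WT and T12h, 151 and 149.6 in KO and 41.7 and 35.5 in T48h, and fibroblast markers to 66.4 to 123 in WT and T12h, 19.1 and 16.6 in KO and 717 and 797 in T48h. Col1a1 (507 and 599 CPM) and Col1a2 (175 and 164) made up most of the fibroblast sum in T48h, where Fap was at 0. Of the 6 fibroblast markers tested, 4 were higher in T48h than in WT. In KO, 1 of the 6 rose and 2 fell, and Thy1 went against the sum (mean 0.997 CPM in WT, 5.75 in KO). Of the 8 neuron markers, 4 rose and 2 fell in KO (75.0%, against 64.1% of all genes tested). Among them, Gap43 had a mean of 6.17 CPM in WT and 59.4 in KO, and Syt1 27.6 in WT and 1.23 in KO.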

How the data were processed

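The authors deposited a table of estimated counts of fragments per locus and a table of FPKM, per the file headers, for 28432 loci. The tools named for the authors' processing are TopHat2 2.1.1 and Cufflinks 2.2.1, together with SAMtools 1.5 and deepTools, on build mm10, per the submitters' processing notes. The annotation, like the strand setting, is not given in the sources used here. Per the labels' protocols, RNeasy RNA went into TruSeq libraries. The deposited counts were whole multiples of 1 value per column (0.630 to 1.29), within a tolerance of 0.02 fragments, for 92.3% to 93.2% of values, and this factor was divided out. The 8 loci that the deposited status columns mark as holding too many fragments were left out, and so were the 5143 unnamed loci, with 3.15% to 6.18% of counts. The status columns also mark the estimate of Peg10 as failed in 4 columns and that of Peg3 in 1. In all, 112 companion columns were not used as values.

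Columns name the group but not the duplicate. Technical columns were paired within each group by a chi-square of their counts, which was 1.55 to 1.78 per degree of freedom within pairs and 9.23 to 17.1 between them. Pairs were summed and rounded to whole numbers. All 4 groups were fitted together by the quasi-likelihood F-test of edgeR 4.0.16 in R 4.3.3, with TMM (factors 0.914 to 1.04), filterByExpr and Benjamini-Hochberg adjustment, with 4 residual degrees of freedom and a biological coefficient of variation of 12.6%. CPM use the TMM-scaled library sizes. The script was tested on simulated data. Alternatives were other scalings, no filter, DESeq2 1.42.0, limma 3.58.1 on log2(FPKM + 1) and log2(FPKM + 0.1), which understate the change of low genes, only the groups compared, deposited values as they stand, 1 technical column per duplicate and leaving out each library. Gene coordinates are those of the deposited tables.

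The members and lists were chosen with earlier results of these data known. By the rule for named genes, members past the test at 2-fold or more in at least 1 of 6 comparisons (33 members) have all library values. At most 4 genes of any other list are named per comparison. Some markers at 0, shared with another list, making up much of a sum or moving against it were added after their values were seen. Not every such marker is named.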

Additional observations from a re-analysis of the deposited data

Results flagged for a closer look

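Several members moved in opposite directions from KO in the rescues, with both moves and the difference between T48h and T12h past the edgeR test. That difference is given as a log2 fold change of T48h over T12h (n = 2 libraries a group). Asb4 differed by 7.99, Phlda2 by 7.37, H19 by 3.25, Peg3 by 3.03, Airn by 2.76 and Peg10 by 1.5, each below KO in T12h and above KO in T48h. Airn's fall in T12h had the other sign in both limma fits on FPKM (0.496 and 0.621), and reads of Igf2r could be among its counts, which was not tested. The second locus named Rian did the same, with 3.01, but its fall in T12h was lost in DESeq2, in limma on FPKM and without KO library b or either T12h library. Dio3 went the other way, with −2.87, above KO in T12h and below it in T48h, and its fall in T48h was lost without KO library a or either T48h library, in DESeq2 (adjusted p = 0.0553), with only the groups compared (0.21) and with 1 technical column per duplicate (0.173). The sums of cardiac mesoderm markers differ between these groups too, and their part was not tested.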

How the results depend on the processing

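No count of members called higher or lower moved by more than 1.5 times under the 17 alternatives. The counts ran from 18 to 20 higher and 20 to 21 lower in KO against WT, 20 to 23 and 18 to 20 in T12h against KO, 23 to 25 and 11 to 15 in T48h against KO, 7 to 13 and 6 to 12 in T12h against WT, 21 to 27 and 10 to 11 in T48h against WT, and 18 to 23 and 10 to 12 in T48h against T12h. Of 224 results of single loci past the test, 180 kept direction and call under every alternative. In 147 instances a call was lost. By single setting, calls lost or reversed numbered 23 and 22 in the 2 limma fits on FPKM, 5 to 14 with each library left out, and 0 to 9 under each other setting. In 6 the sign changed, all in limma on log2(FPKM + 1) or log2(FPKM + 0.1), and the cause was not tested. For Airn these were −0.448 and −0.565 in KO against WT and 0.496 and 0.621 in T12h against KO, and for Mirg 0.0488 and 0.0470 in T12h against KO (limma adjusted p from 0.107 to 0.938). Upper-quartile scaling moved the median log2 fold change of all genes by −0.144 in T48h against KO and by −0.124 in T48h against WT, so changes in T48h near that size depend on the scaling. With 2 libraries a group, small changes and members of a few counts, such as Slc22a18, are limited by depth and replication. No paired analysis was possible because the columns carry no duplicate numbers.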
